A study of Oryctolagus cuniculus with 12 samples.

Results

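MAL (ENSOCUG00000003544) and PLLP (ENSOCUG00000007353) are 2 of the 17301 genes measured by RNA sequencing in rabbit uterine body, the breed being New Zealand White. They were selected on measured values, because the authors' deposited tables of differentially expressed genes name them, MAL in LPS against Control and PLLP in LPS+CsA against LPS, so those differences are given as descriptions without a test. There were 4 groups of 3 animals, with 1 library per animal, and in all of them estrus and ovulation had been synchronised with eCG and hCG. Control animals received saline and the CsA vehicle, LPS animals 4 mg/kg of lipopolysaccharide, a component of the outer membrane of Gram-negative bacteria, and CsA animals 20 mg/kg of intramuscular cyclosporine A, an inhibitor of calcineurin and so of T cell activation. LPS+CsA animals received both agents, and tissue was collected 3 h into treatment. The labels name an intrauterine infusion in one place and an intravaginal infusion in another, give the CsA vehicle once as solvent and once as saline, and do not fix when CsA was given relative to the infusion. No label states the animals' ages.

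MAL, the myelin and lymphocyte protein, and PLLP, plasmolipin, are small, very hydrophobic proteins that cross the membrane several times and share the MARVEL domain, a fold found in proteins of vesicle traffic and of specialised membrane contacts. Both are proteolipids and both are components of myelin. In cultured epithelial cells MAL sits in cholesterol- and glycosphingolipid-rich membrane rafts and is needed for the transport of proteins to the apical surface, and in human T cells it takes part in the delivery of the kinase Lck to the plasma membrane. In zebrafish, plasmolipin acts in the endosomes of absorptive gut epithelium.

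Levels were deposited as FPKM, a read number divided by transcript length and library size. FPKM sums ranged from 579986 to 747163 per library, and 11945 to 12398 genes reached 1 FPKM. Both members reached 1 FPKM in 12 of 12 libraries and were among the 12794 genes tested, a set limited to those with 1 FPKM or more in 3 or more libraries. The library CsA 2 lay farthest from the others on the first principal component of these genes, which held 19.9% of the variance, and LPS 1 on the next, which held 17.1%. Of 7 marker genes of uterine tissue, 0 had a symbol in the deposited tables, so the tissue label could not be checked by its markers. In whole tissue, fewer cells of a type and less RNA per cell cannot be told apart.

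MAL was low in all 3 Control libraries, at 2.48, 2.95 and 2.28 FPKM (mean 2.57 ± 0.346, SD, n = 3). It stood at 6.75, 5.16 and 5.28 FPKM in the LPS libraries (5.73 ± 0.884). Each LPS library was above each Control library, and the ratio of the means was 2.23. Of all genes tested, 8.42% were likewise higher without overlap in this comparison, which is the one that chose MAL. In the CsA group MAL read 2.39, 16.4 and 20.8 FPKM (13.2 ± 9.63). One CsA library thus sat among the Controls, while the other two were the highest of the 12. In the LPS+CsA group MAL read 3.54, 4.11 and 11.4 FPKM (6.34 ± 4.37), with libraries 1 and 2 below every LPS library and library 3 above them.

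Over the 12 libraries MAL ranged from 2.28 to 20.8 FPKM, 9.13-fold. By mean level the order was Control, LPS, LPS+CsA and CsA, and the neighbours LPS and LPS+CsA overlapped, as did LPS+CsA and CsA. The spread lay mainly in the groups given CsA. On the log2(FPKM + 1) scale the SD of MAL was 0.14 in Control and 0.18 in LPS, against 1.47 in CsA and 0.79 in LPS+CsA. The pooled within-group SD of MAL was 0.84, above that of 96.7% of the genes tested, whose median was 0.23. The mean level of MAL lay above that of 52.4% of all 17301 genes measured.

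**Figure D1:**
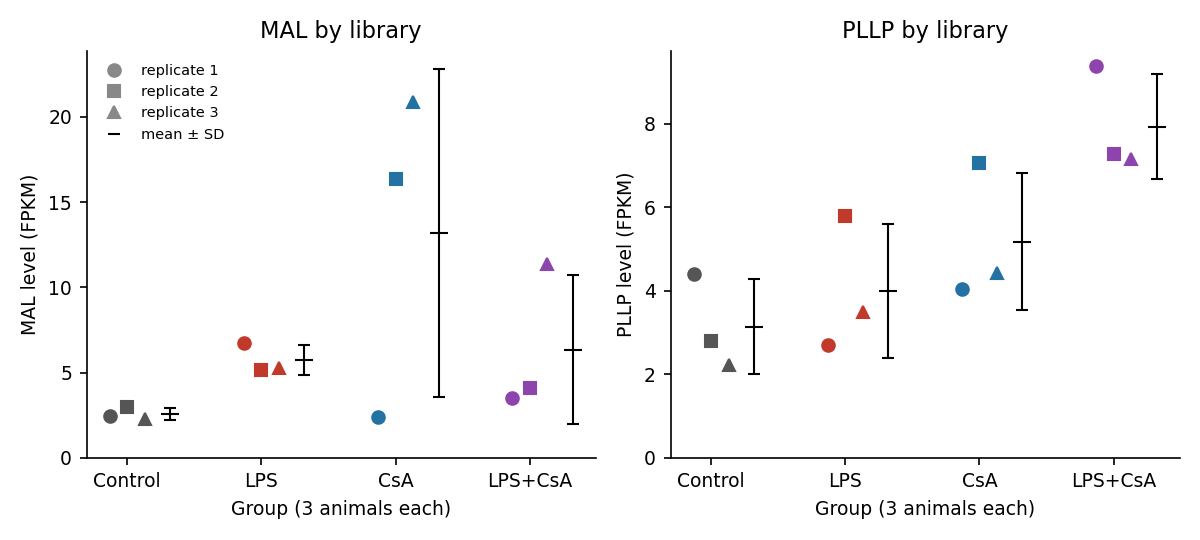
Level of MAL and of PLLP in each of the 12 libraries (FPKM), by group, with a symbol per animal and, beside them, the group mean ± SD (n = 3). MAL is high in CsA 2 and CsA 3, at 16.4 and 20.8 FPKM, and at 2.39 in CsA 1, while the LPS+CsA libraries are the 3 highest for PLLP.

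For LPS against Control, the authors' deposited table gives MAL a log2 fold change of 2.67 with p = 9.35e-07. That is the 21st highest of the 160 genes listed there as higher in LPS, and the table's 14th smallest p. The same table lists read counts for MAL of 18, 17 and 14 in Control and of 160, 85 and 71 in LPS. The means were 16.3 ± 2.08 and 105.3 ± 47.9 counts (SD, n = 3), a ratio of 6.45 or 2.69 on the log2 scale. The FPKM values of the same 6 libraries gave a ratio of 2.23, or 1.16 on the log2 scale. The groups were apart in both units, but the size of the difference was not the same in each.

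The number of counts behind 1 FPKM of MAL was 7.27, 5.75 and 6.13 in the Control libraries and 23.7, 16.5 and 13.5 in the LPS libraries. The highest was 4.12 times the lowest. If both units rest on the same reads and one fixed length, counts per FPKM of a gene move only with library depth. They would then move by the same factor in every gene. The factor was not the same in every gene listed there, and the reason was not tested. Among 221 genes of that table with at least 10 counts in each of the 6 libraries the median of this spread was 1.29 and the 90th percentile 1.63, and MAL had the widest. No source used here states if the authors scaled the counts, and counts of MAL in the CsA and LPS+CsA libraries are not analysed here. The authors' annotation describes the rabbit protein model of MAL as low quality; the part of the gene model in the gap between the units was not tested. The set of counts against FPKM was chosen after the values were seen.

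**Figure D2:**
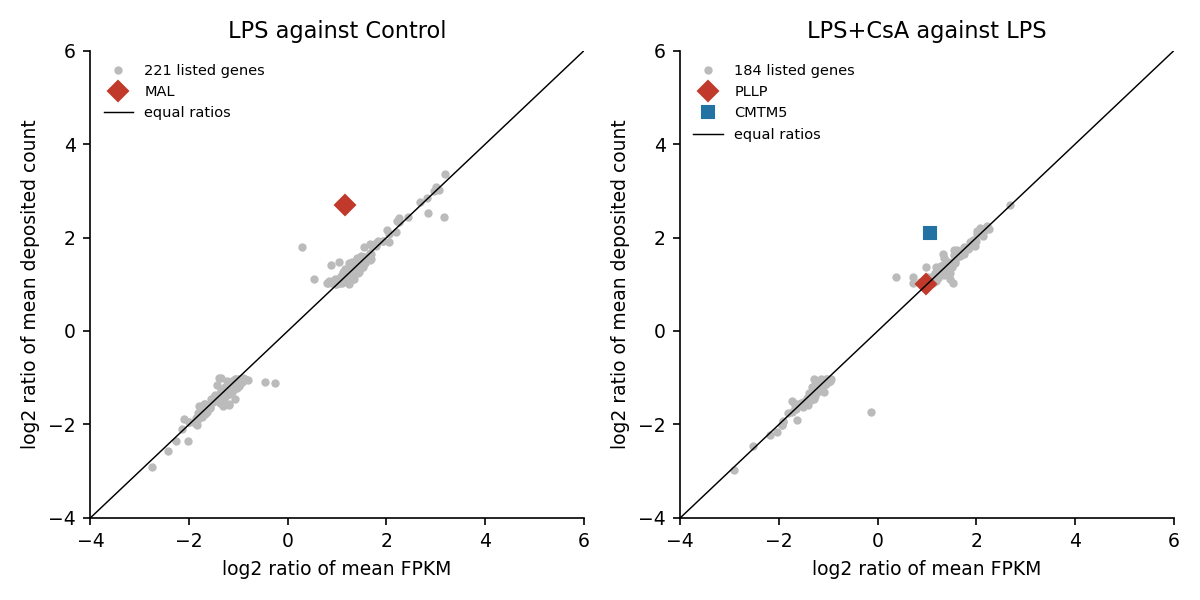
Log2 ratio of mean counts against log2 ratio of mean FPKM for the listed genes of each deposited table, with MAL, PLLP and CMTM5 marked and a diagonal where both units give the same ratio. MAL lies above the diagonal at 2.69 in counts against 1.16 in FPKM, CMTM5 lies above it in the other table, and PLLP lies on it.

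The remaining comparisons of MAL were tested with limma on log2(FPKM + 1), with p-values adjusted over all 12794 genes. At an adjusted p under 0.05, limma called 0 genes in each of the 5 comparisons. At an unadjusted p under 0.05 it found 839 genes (6.56%) in LPS against Control, 1031 (8.06%) in LPS+CsA against LPS, 594 (4.64%) in CsA against Control, 617 (4.82%) in LPS+CsA against Control and 892 (6.97%) in LPS+CsA against CsA. A p above the threshold does not show that MAL or PLLP was the same in both groups.

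MAL was 1.61 ± 0.60 (log2 difference ± SE) above Control in the CsA group, a ratio of mean FPKM of 5.14. The 95% interval was 0.29 to 2.93. The SE, interval and p use a spread shared by all groups, which understates the spread of MAL within CsA. On the log2(FPKM + 1) scale its SD was 1.47 in CsA and 0.14 in Control. The unadjusted limma p was 0.0210, in a comparison where 4.64% of genes had one under 0.05, and the adjusted p was 0.932. MAL was above every Control in 2 of 3 CsA libraries, and the groups overlapped, whereas 5.75% of genes were higher in CsA without overlap. Without CsA 1 the log2 difference was 2.45, with an adjusted p of 0.0677 by limma. Without CsA 2 it was 1.27, and without CsA 3 it was 1.11. The Control libraries of this comparison are also those of the one that chose MAL.

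In LPS+CsA against Control, where 6.88% of genes were higher without overlap, MAL was above every Control in 3 of 3 libraries, 2.47-fold by mean FPKM. The log2 difference was 0.89 ± 0.60 with an adjusted limma p of 0.941, and 0.43 without LPS+CsA 3. Between LPS+CsA and LPS the log2 difference was -0.02 ± 0.60, with an interval of -1.34 to 1.30 and an adjusted limma p of 0.996. Its sign changed when LPS 1, LPS+CsA 1 or LPS+CsA 2 was left out. These comparisons share libraries with each other and with the one that chose MAL.

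The comparison of LPS+CsA with CsA shares no library with the one that chose MAL. MAL averaged 0.480 of its CsA level there, a log2 difference of -0.72 ± 0.60 with an interval of -2.04 to 0.60 and an adjusted limma p of 0.787. The groups overlapped, and single libraries set the size. The log2 difference was -1.56 without CsA 1, -0.38 without CsA 2 and -0.22 without CsA 3. It was -0.45 without LPS+CsA 1 and -1.18 without LPS+CsA 3.

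PLLP was lowest in Control, at 4.41, 2.80 and 2.23 FPKM (mean 3.14 ± 1.13, SD, n = 3), and read 2.71, 5.79 and 3.50 FPKM in LPS (4.00 ± 1.60). It read 4.05, 7.06 and 4.42 FPKM in CsA (5.18 ± 1.64). In LPS+CsA it read 9.38, 7.27 and 7.15 FPKM (7.93 ± 1.25), and these were the 3 highest of the 12 libraries. The order by mean was Control, LPS, CsA and LPS+CsA. Neighbours overlapped except for CsA and LPS+CsA, which were separated by the step from 7.06 to 7.15 FPKM. PLLP spanned 4.21-fold, less than MAL, and its pooled within-group SD of 0.36 on the log2(FPKM + 1) scale was above that of 75.1% of genes. Its mean level lay above that of 47.0% of all 17301 genes measured.

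LPS+CsA against LPS chose PLLP. In it PLLP was higher without overlap, as were 8.81% of genes, and the ratio of mean FPKM was 1.98, a log2 difference of 0.88 ± 0.27. The authors' deposited table gives a log2 fold change of 1.00 with p = 0.00940, the smallest absolute fold change of its 234 listed genes and 138th by p. PLLP is therefore the listed gene nearest to that table's edge, and the next was GYLTL1B at 1.01. Unlisted genes just outside it have no deposited fold change here.

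The deposited counts of PLLP were 79, 174 and 106 for LPS, against 266, 227 and 223 for LPS+CsA. Their means were 119.7 ± 49.0 and 238.7 ± 23.8 (SD, n = 3), a ratio of 1.99 against 1.98 in FPKM. Counts per FPKM ran from 28.4 to 31.2, a spread of 1.10, so PLLP moved alike in both units where MAL did not. With 79 counts in LPS 1, an exact Poisson interval at 95% runs from 62.5 to 98.5, which covers counting error only. The same interval for the 14 counts of MAL in Control 3 runs from 7.65 to 23.5.

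CsA against Control shares no library with the comparison that chose PLLP. There PLLP was 1.65-fold higher by mean FPKM, a log2 difference of 0.58 ± 0.27 with a 95% interval of -0.01 to 1.17. The unadjusted limma p was 0.0542 and the adjusted p 0.932. The groups overlapped, with CsA 1 at 4.05 FPKM below Control 1 at 4.41, and without CsA 2 the log2 difference was 0.37.

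In LPS+CsA against Control, PLLP was 2.52-fold higher by mean FPKM and above every Control in 3 of 3 libraries. Of all genes tested, 6.88% were higher without overlap there. The log2 difference was 1.13 ± 0.27, with an interval of 0.54 to 1.72 and an unadjusted limma p of 0.00148, where 4.82% of genes had an unadjusted p under 0.05. The adjusted p was 0.941. In LPS+CsA against CsA, where 6.51% of genes were higher without overlap, PLLP was 1.53-fold higher and the log2 difference was 0.55 ± 0.27 with an interval of -0.04 to 1.15 and an adjusted limma p of 0.710. Both of these use the LPS+CsA libraries that took part in choosing PLLP. LPS against Control gave PLLP a log2 difference of 0.26 ± 0.27, with an adjusted limma p of 0.894 and overlapping groups. That difference was 0.01 without LPS 2, and its LPS libraries also took part in choosing PLLP.

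**Figure D3:**
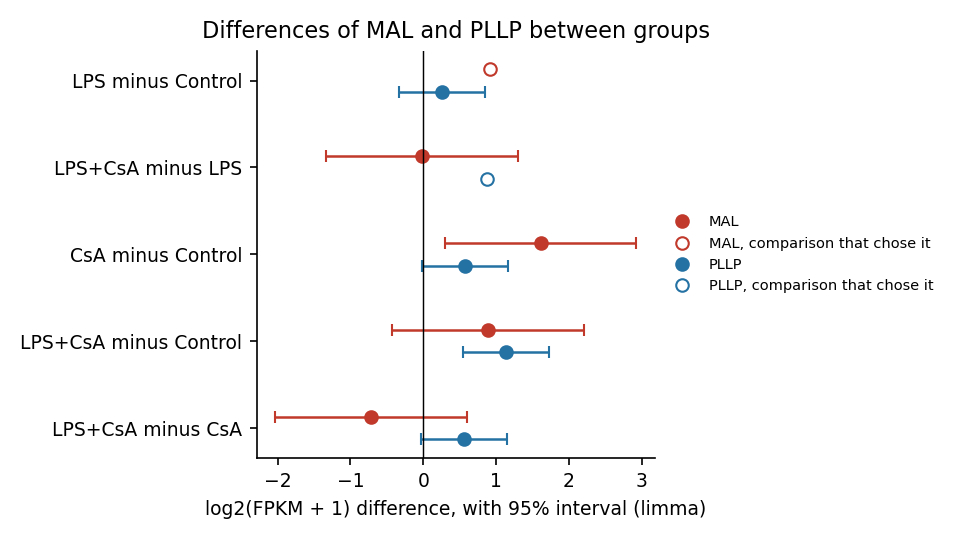
Log2 differences of MAL and PLLP in 5 comparisons, from log2(FPKM + 1), with 95% limma intervals as bars; hollow points mark the comparison that chose each gene and carry no interval. The MAL interval lies above 0 in CsA minus Control, from 0.29 to 2.93, and the PLLP interval in LPS+CsA minus Control, from 0.54 to 1.72. Neither passed after adjustment over all genes. Each interval uses a spread of the gene shared by all groups, although that of MAL was far wider in CsA than in Control.

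MAL and PLLP did not follow each other closely. Over the 12 libraries Pearson's r of their log2(FPKM + 1) values was 0.31 and Spearman's rho 0.34, and r was 0.10 after each group's mean was subtracted. Without CsA 2 and CsA 3, the libraries farthest from the median of MAL, r was 0.32 over 10 libraries. PLLP ranked 2665th of 12793 genes in likeness to MAL. These correlations describe libraries that share their groups, and carry no test.

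The ratio of MAL to PLLP, both per transcript length in FPKM, was 0.562, 1.06 and 1.02 in Control and 2.49, 0.891 and 1.51 in LPS. In CsA it was 0.589, 2.32 and 4.71, and for LPS+CsA 0.377, 0.565 and 1.59. MAL was thus the higher of the pair in some libraries of every group and the lower in others.

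**Figure D4:**
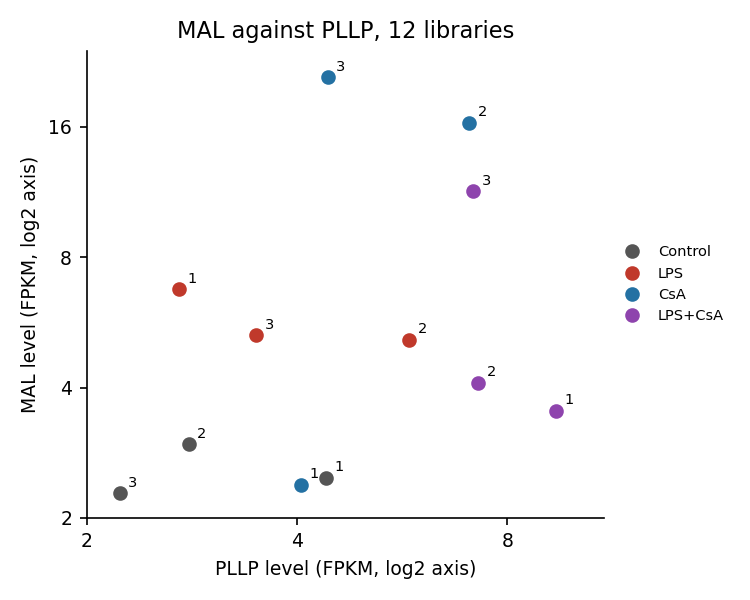
MAL level against PLLP level in the 12 libraries (FPKM, both axes log2), coloured by group and numbered by replicate. CsA 2 and CsA 3 stand at the top with MAL at 16.4 and 20.8 FPKM, the LPS+CsA libraries lie to the right with PLLP from 7.15 to 9.38 FPKM, and r over the 12 points is 0.31.

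Of 24 MARVEL-domain and tetraspan relatives listed, such as the CMTM proteins, occludin and synaptophysin, 1 had a symbol in the deposited tables and could be read. This was CMTM5 (ENSOCUG00000011032), a member of the CMTM family, which joins a chemokine-like part to the MARVEL domain. It read 19.8, 16.4 and 11.8 FPKM in Control and 11.6, 32.3 and 9.30 in LPS. With CsA alone it read 20.8, 128.9 and 15.8 FPKM, and with both agents 46.1, 58.2 and 7.32. A single library, CsA 2, was far above the rest, and in every pair of groups the values overlapped.

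The authors' deposited table of LPS+CsA against LPS gives CMTM5 a log2 fold change of 2.11 with p = 0.000583, where the log2 difference from limma was 0.81 ± 0.86. That table made CMTM5 readable here, so the value is a description. Its deposited counts were 70, 184 and 62 for LPS, against 608, 667 and 85 for LPS+CsA. Counts per FPKM of CMTM5 were 6.05, 5.70 and 6.66 for LPS, against 13.2, 11.5 and 11.6 for LPS+CsA, a spread of 2.31, the 5th widest of 184 genes. Like MAL, CMTM5 thus differed more in counts than in FPKM. Its r over the 12 libraries was 0.13 with MAL and 0.61 with PLLP, which the same table lists as higher in LPS+CsA. Of 20 raft and apical transport genes and 9 sulfatide and glycosphingolipid synthesis genes, 0 had a symbol. These serve the lipids and transport that MAL works with in cultured epithelial cells.

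The genes with a symbol whose pattern was most like that of MAL were ETV7, an ETS-family repressor, with r = 0.78 over 12 libraries, DDX60, a helicase, with 0.71, LOC100356242, which the authors annotate as OASL-like, with 0.69, OASL with 0.67 and TRIM14 with 0.66. All are known as interferon-induced genes in human except LOC100356242, for which the annotation alone is used. They were picked among only 260 genes with a symbol, and ranked 46th, 125th, 168th, 211th and 242nd of all 12793 genes in likeness to MAL. Their symbols come from the authors' deposited tables of differing genes. Those list 3 of them as lower in LPS than Control and 4 as higher in LPS+CsA than LPS. The values show where the likeness lies. OASL read 4.82, 31.0 and 52.5 FPKM in CsA 1, 2 and 3. DDX60 read 1.89, 13.3 and 18.6 FPKM there, and TRIM14 4.18, 18.6 and 23.9. Each, like MAL, was low in CsA 1 and high in CsA 2 and CsA 3.

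Without CsA 2 and CsA 3, r with MAL was -0.15 for DDX60, -0.12 for LOC100356242, -0.06 for OASL and -0.27 for TRIM14. ETV7 differed from these, with r = 0.54 without those libraries and a rho of 0.69 over all 12. However, ETV7 reached 1 FPKM only in CsA 2, CsA 3, LPS+CsA 2 and LPS+CsA 3. Without CsA 2 and CsA 3, only LPS+CsA 2 and LPS+CsA 3 were left above that level. Of the libraries left, LPS+CsA 3 also had the most MAL. The r of 0.54 therefore does not show a likeness free of single libraries, and leaving these out as well was not tested. In LPS, where MAL was above Control, OASL averaged 5.76 ± 1.76 FPKM against 11.7 ± 4.06 in Control (SD, n = 3), and DDX60 1.39 ± 0.453 against 2.75 ± 1.07. The authors' deposited table for that comparison lists both as lower in LPS. ETV7 averaged 0.483 ± 0.121 FPKM in LPS and 0.437 ± 0.110 in Control. The genes with the lowest r were ZNF426 at -0.67, the class II histocompatibility gene RLA-DRB1 at -0.57 and the lactate transporter SLC5A12 at -0.56. Among identifiers without a symbol, ENSOCUG00000008455 and ENSOCUG00000023727 had r of 0.90 and 0.89, and 0.71 each without CsA 2 and CsA 3. Over all genes the median r with MAL was 0.05.

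The symbol-bearing genes most like PLLP were FAM83F (r = 0.75), the atrial natriuretic peptide convertase CORIN (0.74), the guanine deaminase GDA (0.73), KANK4 (0.71) and the argininosuccinate synthase ASS1 (0.67). GDA averaged 6.57 ± 2.40 FPKM in LPS+CsA (SD, n = 3) and between 1.64 and 2.37 in the other groups. FAM83F averaged 2.31 ± 0.499 FPKM in LPS+CsA against 1.22 ± 0.220 in Control. KANK4 was highest in CsA, at 7.16 ± 2.05 FPKM, where PLLP was second. After group means were subtracted r stayed at 0.81 for CORIN and 0.83 for KANK4, and was 0.29 for FAM83F, 0.52 for GDA and 0.38 for ASS1. Lowest were IBSP and TMEM40 at -0.69 each and NTNG1 at -0.66. The identifiers ENSOCUG00000004306 and ENSOCUG00000006910, with no symbol, had r of 0.90 and 0.88. The authors' deposited table of LPS+CsA against LPS, the one that chose PLLP, lists 5 of these 5 most alike genes as higher in LPS+CsA, so their shared height there follows from how they got a symbol.

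**Figure D5:**
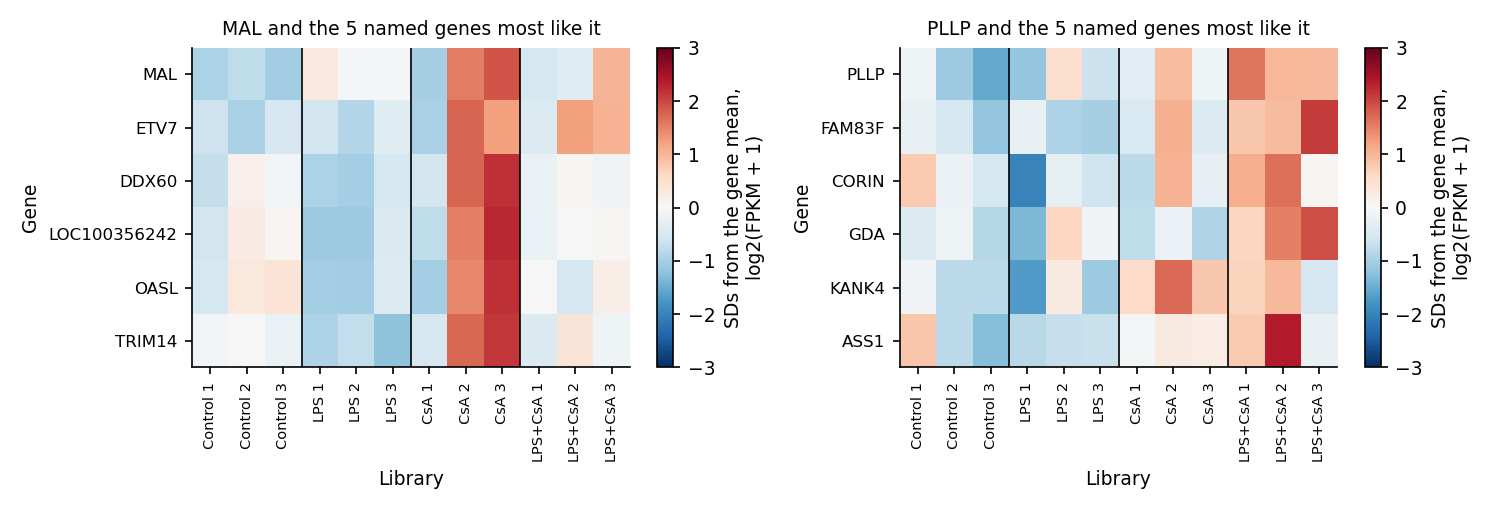
Levels in the 12 libraries of MAL and PLLP and of the genes with a symbol most like each, as SDs from the gene's mean log2(FPKM + 1), with lines between the 4 groups. The genes most like MAL share its high values in CsA 2 and CsA 3, and those most like PLLP are mostly highest in LPS+CsA.

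Cell type markers could be read only where the deposited tables name them, and those tables list genes for differing in LPS against Control or in LPS+CsA against LPS. The direction of a marker in the comparison that lists it, and what it shares there with MAL or PLLP, therefore follows from the selection. The levels below are descriptions over a small part of each list. Of 12 markers of myelinating Schwann cells and nerve, where both proteins are known to be abundant, 0 had a symbol, as was so for 7 smooth muscle and 5 adipocyte markers.

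Where MAL was higher, in LPS against Control, the markers of multiciliated epithelium and of stroma that were read were higher too. Of 13 multiciliated markers 4 had a symbol, FOXJ1, CDC20B, C20orf85 and MCIDAS, and their summed level ran from 0.0571 to 1.98 FPKM in Control and from 2.19 to 48.0 in LPS. It ran from 0.319 to 4.23 FPKM in CsA and from 4.68 to 8.83 in LPS+CsA. C20orf85 was at 0 in 4 libraries, and FOXJ1 and MCIDAS in 1 each. The sums of the LPS and Control libraries did not overlap, where 8.42% of genes tested were higher without overlap. They were parted only by 1.98 FPKM in Control 1 and 2.19 in LPS 1. Taken singly, FOXJ1 and CDC20B overlapped, and C20orf85 and MCIDAS did not. The highest sum, 48.0 FPKM, was that of LPS 2. LPS 1, the LPS library with the most MAL, had the lowest LPS sum. Over the 12 libraries r of this sum was 0.07 with MAL and 0.38 with PLLP. Of 10 stromal markers 2 were matched by symbol, MEDAG and ABCA6, with sums of 16.0 to 24.4 FPKM in Control, 39.4 to 62.8 in LPS, 10.5 to 30.2 in CsA and 28.5 to 36.8 in LPS+CsA. Their r was -0.04 with MAL and -0.07 with PLLP. WNT11, also on the stromal list, is spelled Wnt-11 by the authors, was not matched and is left out of these sums. Its log2 ratio of mean FPKM was -1.60 in LPS+CsA against LPS. The single T cell marker of 13 with a symbol, the receptor constant gene TRAC, and both red cell markers of 4, HBB2 and ALAS2, went the other way. So did the plasma cell sum, at 16.7 to 26.6 FPKM in LPS against 37.6 to 132.6 in Control. The sum of the general epithelial markers SOX9 and CDH16 was also lower, at 2.12 to 3.21 FPKM in LPS against 3.77 to 4.25 in Control. TRAC read 2.54 to 4.06 FPKM in Control, 0.655 to 1.13 in LPS, 1.99 to 3.99 in CsA and 2.29 to 5.99 in LPS+CsA, with r of -0.22 with MAL and 0.44 with PLLP. The red cell sum was 210.7 to 379.6 FPKM in Control, 109.7 to 128.5 in LPS, 140.1 to 202.3 in CsA and 120.3 to 339.4 in LPS+CsA, with r of -0.35 with MAL and 0.17 with PLLP.

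Where PLLP was higher, in LPS+CsA against LPS, general epithelial, plasma cell and T cell markers were higher too. Others went the other way, as the authors' deposited table lists 3 of the 4 multiciliated epithelial markers and the stromal ABCA6 as lower in LPS+CsA. Of 22 epithelial markers 2 had a symbol, the transcription factor SOX9 and the cadherin CDH16, and their sum ran from 3.77 to 4.25 FPKM in Control, 2.12 to 3.21 in LPS, 2.75 to 4.80 in CsA and 5.25 to 7.74 in LPS+CsA. Both are listed by the authors' deposited table that chose PLLP, in the same direction, and the r of their sum was 0.64 with PLLP and 0.20 with MAL. Of 7 plasma cell markers 4 had a symbol, JCHAIN, MZB1, DERL3 and POU2AF1, and that table lists all 4 as higher in LPS+CsA. Their sum was 37.6 to 132.6 FPKM in Control, 16.7 to 26.6 in LPS, 15.6 to 45.1 in CsA and 69.7 to 122.8 in LPS+CsA, and its r was 0.31 with PLLP and -0.15 with MAL. The 3 neutrophil markers with a symbol of 5, S100A8, S100A9 and S100A12, summed to 8.68 to 276.5 FPKM in Control, 60.2 to 73.3 in LPS, 16.7 to 398.8 in CsA and 14.0 to 526.6 in LPS+CsA. They overlapped between all groups, with r of 0.27 with MAL and -0.02 with PLLP, although the same deposited table lists all 3 as higher in LPS+CsA. No marker was at 0 in any library outside the multiciliated list. The part of these cell types in the levels of MAL and PLLP was not tested.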

How the data were processed

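Per the submitters' processing notes, the authors' tools were TopHat2, Cufflinks and Cuffnorm, and the authors deposited FPKM values; the sources used here give neither versions nor genome build. The authors' deposited comparison tables hold, per the file headers, for each listed gene a p-value, a log2 fold change and, by library, its count and FPKM. Symbols came from those tables, which name 308 genes, 261 of them tested; the reference gene table (mOryCun1.1) matched none of the identifiers and served for names and gene order alone.

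Values were analysed as log2(FPKM + 1) for genes reaching 1 FPKM in 3 or more libraries. Group means over the 12 libraries were modelled in limma 3.58.1 (R 4.3.3) with a variance trend, two-sided, Benjamini-Hochberg adjusted over 12794 genes. The fit was tested on simulated data. Animals are separate, so p-values measure the spread between animals, taken as equal in all groups. Named genes were MAL, PLLP, list members with a symbol, and for each member the 5 most and 3 least alike genes with a symbol and 2 identifiers without one. GYLTL1B was named after its value was seen. Members and lists were chosen with earlier results of these data known. The alternatives tried were leaving out each library, a replicate block, array weights, no variance trend, fitting only the compared groups, quantile or median-of-ratios scaling, a mean of 5 FPKM or more, no filter, and 0.1 as the pseudocount. Other tools were scipy 1.17.1, matplotlib 3.10.9, pandas 2.3.3, numpy 2.4.6 and Python 3.11.15.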

Additional observations from a re-analysis of the deposited data

How the results depend on the processing

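Of 21 alternatives for each difference of MAL and PLLP, all kept its direction, except that MAL in LPS+CsA against LPS reversed when single libraries were left out, with values from -0.48 to 0.25 (0.08 without LPS 1, 0.25 without LPS+CsA 1, 0.16 without LPS+CsA 2). The 8 differences that were tested stayed on their side of the threshold in all 21, and the 2 that chose the genes have no test. In those 2 the groups did not overlap, so leaving out a library could not reverse the direction, and its constancy is no support. The same holds for the other comparisons without overlap. The count of genes called, 0 in each comparison by limma, became 2 with no filter in LPS against Control and 2 in LPS+CsA against LPS. It became 1 with the compared groups alone in LPS+CsA against LPS, against Control and against CsA; the cause was not tested. Leaving out 1 library gave 0 to 4 genes in CsA against Control and 0 to 1 in each of the other 4 comparisons. The correlation of MAL with PLLP was 0.10 with group means subtracted, which also kept 4 of the 5 genes most like MAL and 2 of the 5 most like PLLP.

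The labels do not pair animals by replicate number, and 8 of 18 same-numbered pairs had a correlation of deviations over 0.1, from -0.09 to 0.42. Every replicate 3 pair was over 0.1, from 0.19 for Control with LPS to 0.28 for CsA with LPS+CsA, and no replicate 1 pair was. With the replicate block, MAL in CsA against Control was 1.61 (adjusted p = 0.792 by limma), and PLLP in LPS+CsA against Control was 1.13 (adjusted p = 0.814 by limma). The block changed no call. With 3 animals a group and no library totals, the depth behind an FPKM value is unknown outside the listed genes.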

Other observations

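The chromosome neighbours of MAL and PLLP were taken from RefSeq's rabbit assembly mOryCun1.1, 5 protein-coding genes on each side. Of the 10 neighbours of MAL 0 had a symbol in the deposited tables, and of those of PLLP 1 had, the membrane-anchored chemokine CX3CL1, which lies beyond CCL22. The authors' deposited table that chose PLLP lists it too, as higher in LPS+CsA. CX3CL1 read 3.78, 3.56 and 39.8 FPKM in Control and 2.88, 7.74 and 7.42 in LPS. It read 2.86, 6.14 and 4.85 FPKM in CsA and 23.3, 13.4 and 46.8 in LPS+CsA. Its level was thus highest in Control 3 and in the LPS+CsA libraries, where PLLP was also highest in LPS+CsA but lowest in Control 3. Over the 12 libraries r with PLLP was 0.34 and rho 0.46, and r was -0.10 after group means were subtracted.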
